A study of Mus musculus with 4 samples.

Results

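Dividing T cells were picked out of mouse lung immune cells by their transcripts. A barcode counted as a dividing T cell when it held at least 1 unique molecular identifier (UMI, a tag that marks 1 captured RNA molecule) of Mki67, at least 1 of Top2a and at least 1 of Cd3e, Cd3d or Cd3g, with no UMI of Foxp3, Cd79a, Marco or Car4. Mki67 and Top2a, the gene of the Ki-67 protein and that of a topoisomerase that untangles chromosomes, are transcribed in cells that pass through the cell cycle. Foxp3 marks regulatory T cells, Cd79a marks B cells, and Marco and Car4 mark alveolar macrophages. The cells were thus chosen by these UMI counts. Among 27544 barcodes that had over 200 genes and a mitochondrial share under 15%, 8463 passed the T cell conditions and 177 of these were dividing T cells, namely 52 from WT and 25 from KO mice given DPBS, and 57 from WT and 43 from KO mice given papain. The 7632 T cells with neither Mki67 nor Top2a served for comparison and are called other T cells.

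The samples were live, CD45.2-positive cells sorted from lungs of C57BL/6 mice with floxed Ift20 alleles. WT mice carried Ift20 f/f without Cre, and KO mice carried Ift20 f/f with CD4 cre, so the controls had the floxed alleles too. Mice of both genotypes received DPBS, a buffered saline, or papain, a plant protease that acts as an allergen, at 25 µg through the nose on 3 days in a row and again on day 14, and lungs were taken on day 15. Each of the 4 groups was 1 library, the number of mice behind a library is not given in the labels, and the study's methods describe young male mice. The CD4 promoter drives Cre in thymocytes before they choose the CD4 or CD8 fate, so alpha-beta T cells of both kinds can carry the deletion, while B cells and macrophages should not. With 1 library per group there was no replicate check, no test between groups was possible, and every interval below is a 95% interval for counting error only.

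T cells in healthy tissue mostly rest outside the cell cycle. A T cell that meets its antigen with costimulation leaves quiescence, grows, copies its DNA in S phase and separates the copies in mitosis, and it turns on glycolysis and nucleotide synthesis to pay for this. Dividing progeny take on effector programmes, such as the type 2 and type 17 cytokines of helper T cells in allergic lungs and the granzymes of CD8 T cells. Ift20 encodes a small intraflagellar transport protein that builds cilia in other cells and, in T cells, which have no cilium, works in vesicle traffic towards the immune synapse.

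The promoters of many cell cycle genes carry letters that differ between the genes of S phase and those of mitosis. The genes that differed most in the cells described below fall mostly into these 2 groups, and 5 promoters are printed. Each was picked by its ratio among genes with the letters of its group in the window shown. The 5 are thus examples chosen for having the letters and do not show how common these are. E2F factors bind sites such as TTTGGCGC in front of replication genes, and the cell cycle genes homology region (CHR, TTTGAA) with CCAAT boxes stands in front of mitotic genes. Hells, a chromatin remodeller, and Mcm6, a subunit of the replicative helicase, stand for replication. Kif11, a spindle motor, Cdk1, the kinase that starts mitosis, and Ube2c, which feeds the anaphase-promoting complex, stand for mitosis. The windows end at the base before the annotated start (RefSeq, GRCm38.p6) at chr19:38930870-38930989 on the plus strand for Hells, chr1:128359706-128359825 on the minus strand for Mcm6, chr19:37376262-37376381 on the plus strand for Kif11, chr10:69352913-69353032 on the minus strand for Cdk1 and chr2:164769809-164769928 on the plus strand for Ube2c. Each is written 5′ to 3′ on the strand of the gene, and capitals mark the E2F letters in Hells and Mcm6, TTTGAA or its reverse complement TTCAAA in the other genes, and CCAAT or its reverse complement ATTGG in all.
Hells: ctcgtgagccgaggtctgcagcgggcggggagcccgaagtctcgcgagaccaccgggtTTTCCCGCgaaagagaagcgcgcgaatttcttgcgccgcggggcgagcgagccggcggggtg
Mcm6: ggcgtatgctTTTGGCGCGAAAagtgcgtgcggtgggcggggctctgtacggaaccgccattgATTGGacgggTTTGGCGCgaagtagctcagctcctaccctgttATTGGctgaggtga
Kif11: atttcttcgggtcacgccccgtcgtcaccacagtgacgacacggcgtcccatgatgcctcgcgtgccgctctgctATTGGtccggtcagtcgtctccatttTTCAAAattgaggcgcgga
Cdk1: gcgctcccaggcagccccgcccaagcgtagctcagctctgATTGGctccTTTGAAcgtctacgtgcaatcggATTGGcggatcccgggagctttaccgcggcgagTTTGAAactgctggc
Ube2c: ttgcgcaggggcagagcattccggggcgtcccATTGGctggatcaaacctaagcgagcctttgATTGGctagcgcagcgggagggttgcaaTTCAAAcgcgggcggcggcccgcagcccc

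Each motif was searched on both strands in windows of 300 bases per gene, from 250 before to 50 after the start. The E2F letters (TTTGGCGC, TTTGCCGC, TTTCGCGC or TTTCCCGC) were in 10 of the 30 replication genes with an entry, or 33.3%, and in 1 of 31 mitosis genes, against 2.32% of all 27025 promoters. TTTGAA was in 23 of 31 mitosis genes, or 74.2%, and in 4 of 30 replication genes, or 13.3%, against 18.1% of all promoters. CCAAT was in 25 of 31 mitosis genes (80.6%), in 17 of 30 replication genes (56.7%) and in 37.9% of all promoters. A match is a run of letters, not a measured binding site.

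The libraries held 5863 to 8552 barcodes and between 53854420 and 75675956 UMIs, and any pair of them shared 6 to 14 barcode sequences. The dividing T cells were the deeper cells. Lists of 4 values below take DPBS before papain and, within each, WT before KO. The median dividing T cell had 29824.5, 21434, 24215 and 20043 UMIs, against 5846.5, 6482, 6341 and 7017 in other T cells, so that the ratio ran from 2.86 in Papain KO to 5.10 in DPBS WT. A deeper cell is more likely to show 1 UMI of any gene, and the part of depth in each share below was examined only where thinned values are given. Scrublet, a doublet caller, marked 4, 0, 2 and 0 of the dividing T cells.

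Ift20, the floxed gene, was lower in the dividing T cells of both KO libraries. After DPBS its level was 64.9 UMIs per 1000000 UMIs (CPM, 53 to 78.8) in WT and 23.5 (12.1 to 41.0) in KO. After papain it was 58.1 (46.5 to 71.7) in WT and 22.0 (14.2 to 32.4) in KO. The intervals of the KO and WT libraries did not overlap within either treatment. KO over WT gave a log2 ratio of -1.47 (-2.47 to -0.60) after DPBS and -1.40 (-2.11 to -0.75) after papain, and it was -2.07 and -1.76 when the cell with the most Ift20 UMIs was left out of each library. An Ift20 UMI was seen in 44 of 52, 4 of 25, 40 of 57 and 12 of 43 dividing T cells.

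The ratio was of like size in other T cells, at -1.19 (-1.40 to -0.99) after DPBS and -1.30 (-1.5 to -1.10) after papain. Marco-positive cells, which Cre should spare, gave -0.04 (-0.18 to 0.10) after DPBS and -0.22 (-0.41 to -0.03) after papain. Cd79a-positive cells gave -0.47 (-0.65 to -0.30) after DPBS and -0.01 (-0.14 to 0.12) after papain. In each of these cell types 1 of the 2 intervals thus lay below 0. Cells with at least 5000 UMIs were thinned to 5000, and shallower cells were left out. In DPBS WT this left out 2 dividing T cells, 685 other T cells and 1905 Cd79a-positive cells, with 969 of the last kept. Of the dividing T cells kept, 32%, 0%, 30.9% and 11.6% then had an Ift20 UMI. The 0 of 21 in DPBS KO allows a share of up to 14.3% by the floor of 3 counts, and up to 16.1% by the exact binomial interval. The shares were 22.5%, 10.3%, 22.0% and 8.96% of other T cells and 21.8%, 16.3%, 21.7% and 18.2% of Cd79a-positive cells. In the KO libraries the thinned share in dividing T cells was thus below that of Cd79a-positive cells in value. It rests on 0 of 21 and 5 of 43 dividing T cells, and the order was not tested. After papain it was near that of other T cells. Split by lineage, the dividing cells with Cd4 UMIs alone held 58 Ift20 UMIs in DPBS WT and 0 in the 6 cells of DPBS KO, which allows up to 23.6 CPM, and 50 and 11 after papain. Those with Cd8 UMIs alone held 14, 3, 13 and 3. Ift20 lies at chr11:78536361-78541737 on the plus strand (GRCm38), with no other gene over it. By the study's methods, loxP sites in introns 1 and 3 flank exons 2 and 3, which in transcript Ift20-201 of GENCODE M21 lie at chr11:78538510-78538738 and chr11:78538812-78538962. A 3′ library counts transcript ends, outside the deleted exons, so the UMIs left in KO cells do not measure how many cells kept the gene.

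**Figure D1:**
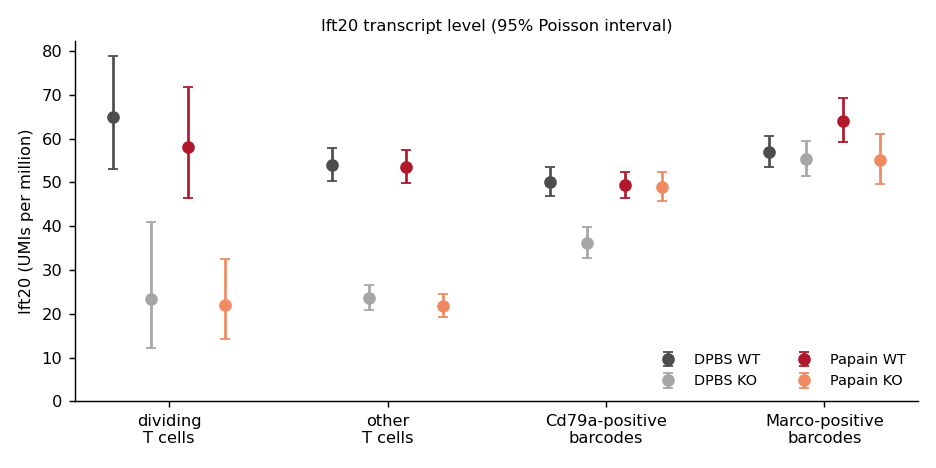
Ift20 level in CPM in each library for dividing T cells, other T cells, Cd79a-positive cells and Marco-positive cells, with 95% Poisson intervals. In dividing T cells the KO libraries sit at 23.5 and 22.0 and the WT libraries at 64.9 and 58.1.

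The label of dividing T cells was checked against genes that the choice did not use. UMIs of Trac, Trbc1 or Trbc2, the constant segments of the alpha-beta T cell receptor, were in 98.1%, 96.0%, 100% and 97.7% of the dividing T cells. Free RNA can put such UMIs into any droplet, and they were in 20.9%, 15.6%, 21.8% and 22.3% of Cd79a-positive cells, while Cd3 UMIs were in 16.2%, 12.3%, 17.7% and 17% of these. The Cd79a-positive cells were shallower, with a median of 4136.5, 4419.5, 4809 and 5134 UMIs. Marco-positive cells with Mki67 and Top2a were deep, with a median of 26889, 31342, 27086 and 26479 UMIs. Among them, 40.5%, 26.2%, 35.1% and 34.8% held UMIs of the receptor constant segments. Cd3 UMIs were in 29.1%, 21.4%, 16.2% and 34.8% of them. Cd3 was part of the choice, so its amount is a description and no check of the label. The median was 53, 42, 33 and 35 Cd3 UMIs per dividing T cell and 0 per Cd79a-positive cell. Of the dividing T cells, 98.1%, 96.0%, 98.2% and 95.3% had at least 2 Cd3 UMIs.

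The division rule was also steep. The replication and mitosis lists, which leave out Mki67 and Top2a, together made up 17142, 14940, 15144 and 14904 CPM in dividing T cells and 1433, 1613, 1556 and 1557 CPM in other T cells. Just inside the rule, 1, 2, 2 and 4 cells had exactly 1 UMI of each gene, and these lists reached 1482, 2081, 1491 and 2933 CPM in them. Just outside it, 22, 18, 57 and 22 T cells had Mki67 alone, with 2218, 3238, 2332 and 2118 CPM, and 145, 91, 161 and 138 had Top2a alone, with 1896, 1846, 1800 and 1863 CPM. Cells next to the limit were thus nearer to other T cells than to the dividing T cells as a whole in these lists.

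After DPBS, dividing T cells were 2.03% (1.52 to 2.65) of WT and 1.46% (0.946 to 2.15) of KO T cells. After papain they were 2.45% (1.86 to 3.16) and 2.31% (1.68 to 3.1). All 4 intervals overlapped. The log2 ratio of the share in KO to that in WT was -0.48 (-1.23 to 0.24) after DPBS and -0.08 (-0.69 to 0.52) after papain. The ratio of papain to DPBS was 0.27 (-0.30 to 0.84) in WT and 0.67 (-0.08 to 1.44) in KO. Each of these intervals holds 0, so a difference in the share was not detectable at this number of cells. Of all kept cells, dividing T cells were 0.639%, 0.438%, 0.713% and 0.754%, and on this base the papain to DPBS ratio in KO was 0.78 (0.04 to 1.56). When barcodes were thinned to 3000 UMIs before the rule was applied, the shares of T cells were 1.22%, 0.895%, 1.96% and 1.27%. Leaving out cells with any UMI of 6 genes of other lineages left 3, 5, 13 and 8 dividing cells, and the KO to WT ratio after DPBS was then 1.13.

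**Figure D2:**
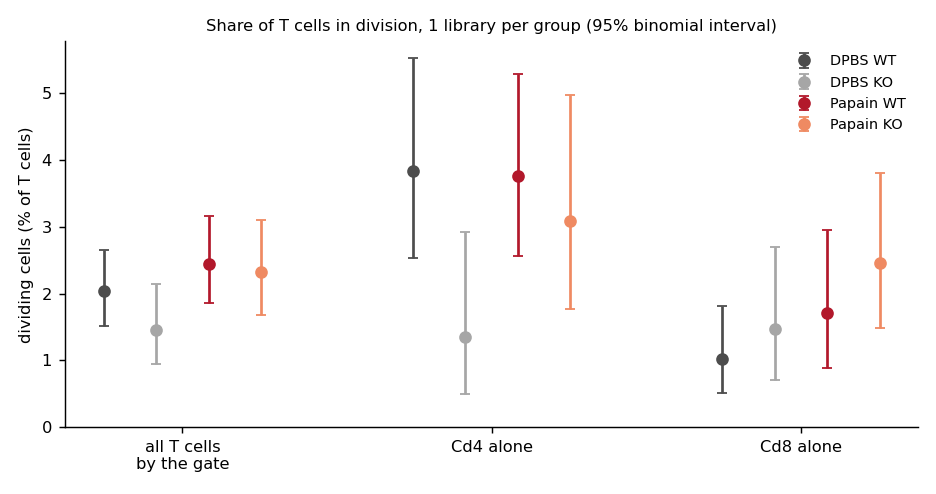
Dividing T cells as a percent of all T cells in each library, with 95% binomial intervals and 1 library per group. DPBS KO is the lowest at 1.46% and Papain WT the highest at 2.45%, with overlapping intervals in all 4 libraries.

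Regulatory T cells were kept apart by the Foxp3 condition, and many of those in division were in 1 library. T cells that failed the rule for Foxp3 alone, with both Mki67 and Top2a present, numbered 8, 5, 33 and 4. They were 11.8%, 12.5%, 19.0% (13.4 to 25.6) and 6.67% (1.85 to 16.2) of the 68, 40, 174 and 60 Foxp3-positive T cells. With these cells added, dividing T cells were 3.59% of T cells in Papain WT. The other conditions alone removed 12, 1, 8 and 14 cells for Cd79a, 3, 2, 0 and 2 for Marco and 10, 5, 2 and 3 for Car4.

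Cells of the CD4 and CD8 lineages took different shares of the dividing T cells in the 4 libraries. Cd4 encodes the coreceptor of helper T cells, and Cd8a and Cd8b1 encode that of cytotoxic T cells. Cells with Cd4 UMIs alone were 27 of 52, 6 of 25, 31 of 57 and 16 of 43 dividing T cells, or 51.9% (37.6 to 66.0), 24.0% (9.36 to 45.1), 54.4% (40.7 to 67.6) and 37.2% (23.0 to 53.3). Cells with Cd8 UMIs alone were 11, 10, 12 and 19, or 21.2%, 40.0%, 21.1% and 44.2%. Both WT libraries thus had more Cd4-alone than Cd8-alone dividing cells, and both KO libraries the reverse, with intervals that overlap within each treatment. In other T cells Cd4-alone cells were 27.4%, 25.9%, 34.2% and 27.9%, and Cd8-alone cells were 42.3%, 39.3%, 30.7% and 41.0%.

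Seen from the lineage, 3.82%, 1.35%, 3.75% and 3.09% of Cd4-alone T cells and 1.02%, 1.47%, 1.70% and 2.45% of Cd8-alone T cells were dividing. The lowest Cd4 value was in DPBS KO, with a log2 ratio to DPBS WT of -1.5 (-3.06 to -0.19) that rests on 6 cells against 27. After papain the Cd4 ratio of KO to WT was -0.28 (-1.25 to 0.64), and the Cd8 ratios were 0.53 (-0.86 to 1.91) after DPBS and 0.53 (-0.59 to 1.70) after papain, all with 0 inside. The Cd4 share depends on depth, since 1 Cd4 UMI decides it. With barcodes thinned to 3000 UMIs, Cd4-alone cells were 19.4%, 33.3%, 30.4% and 16.7% of the dividing T cells, and the order of DPBS WT and DPBS KO was reversed.

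Both Cd4 and Cd8 UMIs were found in 11, 2, 6 and 1 dividing T cells, or 21.2%, 8.0%, 10.5% and 2.33%, against 2.48% to 3.65% of other T cells. Of these 20 cells, 13 had just 1 UMI of Cd4 or just 1 of Cd8, and Scrublet called 3. Rag1, which cuts receptor genes in immature lymphocytes, was seen in 1 of them in DPBS WT and 1 in DPBS KO. Cells without Cd4 or Cd8 that held Trdc, the constant segment of the delta chain, numbered 0, 1, 2 and 1. Whatever their Cd4 or Cd8, 6, 3, 3 and 4 dividing T cells held 5 or more UMIs of the gamma-delta gene list. The number of gamma-delta T cells in the set therefore depends on the measure. Leaving out the cells with both left the shares of T cells in division within their counting intervals.

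Genes of the cell cycle set the dividing T cells apart, as the choice by Mki67 and Top2a would have it, and the values that follow describe them without a test. Levels are summed UMIs over the cells of a library, and genes are counted where their mean over the sums reached 50 CPM. Over all 2653 such genes, 14.2% were at least 2-fold higher in dividing than in other T cells in all 4 libraries and 1.96% at least 2-fold lower, and the median log2 ratio was 0.37. Of the 36 replication genes, 20 passed the 50 CPM limit and 20 of these were 2-fold higher in all 4 libraries, with a median log2 ratio of 3.23. Of the 36 mitosis genes, 24 passed and 23 were 2-fold higher in all 4, with a median of 7.13. A gene near 0 in other T cells reached the limit only through the dividing cells, so these counts follow from the choice. With TMM factors, which set the bulk of genes equal, every ratio was lower by 0.28 to 0.42, the medians were 2.87 and 6.78, and the split of 2-fold genes was 197 higher and 157 lower in place of 377 and 52, or 55.6% in place of 87.9% higher.

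The mitosis genes with the highest ratios had few UMIs in other T cells, although the list as a whole summed to 917 to 1078 CPM there, with Smc4 at 264 to 316 CPM, against 516 to 559 CPM for the replication list. Ccna2, the cyclin A2 gene, had 273, 240.4, 305 and 242 CPM in dividing T cells and 0.2 to 0.4 CPM in other T cells. Birc5, or survivin, a part of the complex that watches chromosome attachment, had 618, 545, 542 and 469 CPM against 0.7 to 1.4 CPM. Cdk1 had 244, 194, 183 and 171 CPM against 0.8 to 1.4 CPM. All 4 libraries showed the same pattern for these genes.

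Hmmr, Nusap1, Aurkb, Ccnb2, Cdca3, Pclaf and Kif11 complete the 10 genes with the highest lowest-of-4 ratio, and their log2 ratios ran from 7.07 for Kif11 in its lowest library to 10.89 for Hmmr in its highest. Pclaf, a partner of the replication clamp PCNA, is the one of the 10 that stands in neither list. Ube2c, whose promoter is shown above, had 802, 616, 652 and 391 CPM against 1.5 to 4.6 CPM. Plk1, the kinase that drives spindle formation, had 115, 48.9, 110.1 and 36.1 CPM, so the levels in both KO libraries were below those in both WT libraries. Smc4, a condensin subunit, was the mitosis gene with the smallest ratio, 0.84, at 591, 508, 551 and 469.5 CPM against 264 to 316 CPM.

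Replication genes had smaller ratios. Rrm2, the regulatory subunit of the enzyme that makes deoxynucleotides, had the largest ratio of the list, 7.01, with 379, 260.0, 348 and 421 CPM against 2.2 to 3.2 CPM. Pcna, the sliding clamp of the polymerases, had 203, 166, 182 and 263 CPM against 39.4 to 47.5 CPM. Mcm6 had 237, 182, 201 and 269 CPM against 31.4 to 35.7 CPM, and Hells had 82.8, 84.1, 79.7 and 92.3 CPM against 5.4 to 7.9 CPM. For Pcna and Mcm6 the highest level was in Papain KO and the lowest in DPBS KO.

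Of the 13 histone genes, 7 reached 50 CPM and 5 of these were 2-fold higher in all 4 libraries, against 14.2% of all genes. The library method primes on poly(A) tails, which most replication histone transcripts lack, so their levels here may not follow their abundance. H2afx, which has a tailed form and marks DNA breaks, had 583, 657, 557 and 476 CPM against 42.9 to 52.2 CPM. Hist1h1c, a linker histone, was below other T cells in 3 of the 4 libraries, with 57.9, 125, 95.9 and 70.3 CPM against 102 to 124 CPM.

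Dividing T cells lay at different points between replication and mitosis. Of the UMIs of the replication and mitosis lists together, mitosis genes made up 71.1%, 72.3%, 71.1% and 62.9%. Per cell, the median was 73.0%, 76.5%, 67.4% and 61.7%, with cells from 26.3% to 99.7%, and 24 of 52, 13 of 25, 23 of 57 and 14 of 43 cells were above 75%. Papain KO was the lowest library by each of these measures, 8.18 percentage points below Papain WT and 9.36 below DPBS KO in the summed share. The difference was also there in cells with Cd4 alone (72.5% in Papain WT and 64.3% in Papain KO) and with Cd8 alone (68.7% and 58.1%). It was not kept when barcodes were thinned to 3000 UMIs before the rule was applied, which selects cells rich in Mki67 and Top2a, and gave 78.7%, 75.7%, 70.7% and 76.4%. The cells form a continuum and no phase was called.

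**Figure D3:**
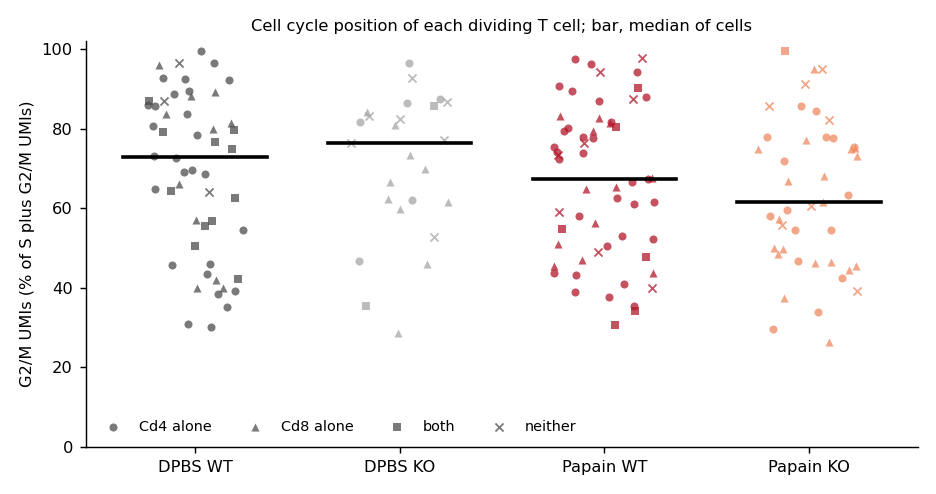
Mitosis list UMIs as a percent of the mitosis and replication list UMIs in each dividing T cell, by library, with the median as a bar and the lineage by the shape of the point. S stands for the replication list and G2/M for the mitosis list. Cells spread from 26.3% to 99.7%, and the medians are 73.0%, 76.5%, 67.4% and 61.7%.

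Within both list groups the KO and WT libraries differed by less than 2-fold for most genes, and the median over all genes tested was -0.02 after DPBS and 0.01 after papain. After DPBS, 4 of 26 replication genes and 4 of 32 mitosis genes were above 0 in KO against WT, with medians of -0.27 and -0.29. After papain, 30 of 31 replication genes were above 0 (median 0.40) and 3 of 30 mitosis genes (median -0.38). The 4 mitosis genes 2-fold lower in DPBS KO were Ccnb1, Aurka, Plk1 and Kif20a, a cyclin, 2 mitotic kinases and a cytokinesis motor, with log2 ratios of -1.26, -1.29, -1.24 and -1.23 at 35.2 to 72.3 CPM in DPBS KO. Plk1 was the gene past 2-fold after papain, at -1.61. Across these comparisons 1.85% of all genes tested were 2-fold higher and 1.41% 2-fold lower in KO after DPBS, and 0.343% and 1.3% after papain. With thinned barcodes the replication median was 0.24 after DPBS and 0.05 after papain, and the mitosis median after papain was 0.16, so these directions depend on which cells are taken.

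Genes of naive and resting T cells were lower in the dividing cells. All 12 genes of the naive and quiescence list reached 50 CPM, 11 were below 0 and 4 at least 2-fold lower in all 4 libraries. Of all genes, 1.96% were 2-fold lower in all 4. The list median was -1.46 (-1.82 with TMM factors). Il7r, the receptor for the survival cytokine interleukin-7, had 63.0, 179.8, 160.1 and 89.7 CPM against 447, 500.5, 479.7 and 545 CPM. Satb1, a chromatin organiser of resting T cells, had 94.2, 227, 165 and 119 CPM against 499.5 to 673 CPM. The levels of both genes in dividing cells lay below every value in other T cells. Tcf7, a factor of naive and memory T cells, was the exception, at 451.5 CPM in DPBS KO against 359 CPM in its other T cells, and lower in the other 3 libraries.

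Among the cell cycle brakes, Btg1, an antiproliferative gene, was the one at least 2-fold lower in all 4 libraries, with 416, 731, 654 and 579 CPM against 1563 to 2043 CPM. Cdkn1b, the gene of the inhibitor p27, had 47.8, 64.5, 50.7 and 55.4 CPM against 92.5 to 115 CPM, while Cdkn2c, the gene of p18, had 79.6, 66.5, 77.7 and 69.5 CPM against 3.7 to 5.5 CPM. Brakes therefore stood on both sides of other T cells.

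The lowest ratios over all genes were led by S100a9 and S100a8, which are abundant in neutrophils. S100a9 had 2.5, 2.0, 4.7 and 7.0 CPM in dividing T cells and 294, 96.2, 669 and 502 CPM in other T cells. The neutrophil list of 4 genes, which holds both, summed to 4.5 to 14.1 CPM in dividing and 203 to 1189 CPM in other T cells, and the part of free RNA or doublets in this was not tested. Leaving out other T cells with a UMI of either gene left the 8 list medians that were recomputed within their spread. The remaining 8 genes were Tcp11l2, Pik3ip1, Rflnb, Igfbp4, Lncpint, Bcl2, Zbtb20 and Gngt2. Pik3ip1, an inhibitor of PI3 kinase, had 29.3, 33.2, 18.9 and 32.5 CPM against 131 to 185 CPM, and Bcl2, which holds back cell death, had 54.8, 93.8, 63.5 and 106 CPM against 306 to 357.5 CPM.

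T cell identity genes stayed near the median of all genes. All 14 passed 50 CPM, none was 2-fold apart in all 4 libraries, and the median was 0.31, below the 0.37 of all genes and -0.04 with TMM factors, so its sign depends on the scaling. Cd28, the costimulatory receptor, had 378, 289, 344 and 305 CPM against 255 to 276 CPM. Of the 23 activation and costimulation genes, 11 passed and 1, Ctla4, was 2-fold higher in all 4, against 14.2% of all genes. Ctla4, an inhibitory receptor of activated T cells, had 193, 60.6, 238 and 138 CPM against 20.5, 28.7, 57.0 and 28.0 CPM. Cd69, an early activation marker, had 116.5, 99.7, 138 and 90.6 CPM against 193 to 240.3 CPM, below other T cells in each library.

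Metabolic genes were higher as well. Of 15 glycolysis genes, 10 passed 50 CPM and 5 were 2-fold higher in all 4 libraries, against 14.2% of all genes. The median was 1.26 (0.91 with TMM factors). Gapdh, the enzyme in the middle of the pathway, had 2775, 2283, 2015 and 2393 CPM against 642 to 708 CPM. Ldha, which makes lactate, had 979, 729, 875 and 877 CPM against 302 to 392 CPM. For both genes every dividing value lay above every value of other T cells.

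Of 15 genes of the tricarboxylic acid cycle and pyruvate entry, all 15 passed. Of these, 5 were 2-fold higher in all 4 libraries, against 14.2% of all genes. The median was 0.69, or 0.33 with TMM factors. Idh3a, a subunit of isocitrate dehydrogenase, had 125, 131, 123 and 138 CPM against 35.6 to 37.1 CPM. Of 15 genes of nucleotide and one-carbon synthesis, 6 passed and 3 were 2-fold higher in all 4, against the same 14.2%. Phgdh, the first enzyme of serine synthesis, had 257, 238.5, 161 and 189.9 CPM against 37.4 to 45.1 CPM. Akt1, a kinase downstream of PI3 kinase and 1 of the 3 genes listed for AKT-mTOR signalling, had 155, 149, 131 and 144 CPM against 47.3 to 56.7 CPM, while Mtor and Pik3ca did not reach 50 CPM. Of the 17 intraflagellar transport genes, 2 passed and none was 2-fold apart in all 4. Tsg101, an ESCRT subunit in that list, had 68.1, 72.3, 58.1 and 76.5 CPM against 38.2 to 43.2 CPM.

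Cytotoxic genes had higher levels in the dividing T cells of the KO libraries, and some helper cell genes had lower ones. Of 16 cytotoxic genes, 9 were tested after DPBS and 8 were above 0 in KO, 4 of them past 2-fold, with a median of 0.56. After papain 8 were tested, all 8 were above 0 and 4 were past 2-fold, with a median of 1.08. A gene can reach the 50 CPM mean through the KO library alone, so these counts and medians carry no weight as support. Over all 16 genes the list summed to 2452, 5718, 1672 and 4810 CPM in dividing and 1895, 1832, 2084 and 2218 CPM in other T cells. The filtered medians in other T cells were -0.25 and 0.13. Markers of other killer-type cells were also higher in KO, with the natural killer list at 191, 313, 357 and 415 CPM and the gamma-delta list at 84.0, 152, 48.6 and 134 CPM in dividing T cells. The top cell of each library held 32.3%, 45.6%, 30.9% and 16.9% of the natural killer list UMIs. For the gamma-delta list the top cell held 42.4%, 61.5%, 33.3% and 77.0%, so these sums rested largely on single cells. The first list shares Eomes with the cytotoxic list, and the part of such cells was not tested. Of all genes tested in dividing T cells, 1.85% were 2-fold higher after DPBS and 0.343% after papain. The DPBS median turned to -0.54 with barcodes thinned to 3000 UMIs, and was 0.11 with Mki67 or Top2a in place of both. The papain median was 0.0083 with the 3, 5, 13 and 8 cells left when 6 genes of other lineages were not allowed. The KO libraries also had the larger share of Cd8-alone cells, as given above, and the part of lineage in these ratios was not tested beyond the values within lineages below.

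Gzma, a granzyme of killer cells, had 222, 1706, 272 and 1292 CPM in dividing T cells and 67.1, 102, 40.2 and 48.1 CPM in other T cells. A few cells carried it, since 427 of 873 UMIs in DPBS KO and 278 of 403 in Papain WT came from 1 cell. With the top cell of each library left out, the KO over WT log2 ratio was 2.41 in place of 2.94 after DPBS and 3.52 in place of 2.25 after papain. Thinned to 5000 UMIs, Gzma was seen in 26.0%, 28.6%, 9.09% and 20.9% of dividing T cells, with intervals that overlap within each treatment. After DPBS the higher Gzma level in KO was thus not seen in the share of cells. Ccl5, a chemokine of memory CD8 T cells, had 833, 2197, 468 and 1608 CPM, and its ratios were 1.40 and 1.78, or 0.96 and 2.02 without the top cells. Nkg7, a granule protein, had 728, 878, 380.3 and 903 CPM, with ratios of 0.27 (0.11 to 0.43) after DPBS and 1.25 (1.10 to 1.40) after papain. Without the top cells the Nkg7 ratios were 0.008 (-0.17 to 0.19) and 1.27 (1.11 to 1.43). Prf1, the pore-forming perforin, had 11, 14, 9 and 86 UMIs, and its ratio after papain was 3.64 (2.65 to 4.81).

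**Figure D4:**
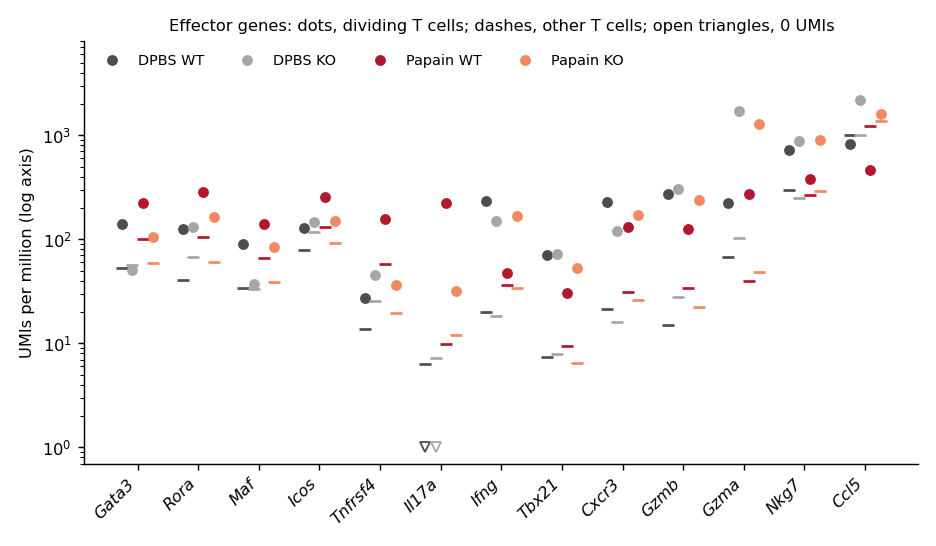
Levels of 13 effector genes in CPM, on a log axis, in dividing T cells (dots) and other T cells (dashes) of each library. Gzma lies at 1706 and 1292 in the KO libraries and at 222 and 272 in the WT libraries, and Il17a has 0 UMIs in both DPBS libraries.

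Gata3, the factor that commits helper T cells to type 2 cytokines, was lower in dividing T cells of both KO libraries. It had 140.1, 50.8, 222 and 106 CPM, from 220, 26, 328 and 121 UMIs, and was seen in 38, 13, 49 and 32 cells. KO over WT gave a log2 ratio of -1.46 (-2.11 to -0.87) after DPBS and -1.06 (-1.37 to -0.75) after papain, and -1.62 and -1.03 without the top cells. In other T cells the ratio was 0.12 after DPBS and -0.77 after papain. Thinned to 5000 UMIs, Gata3 was seen in 44.0%, 9.52%, 47.3% and 34.9% of dividing T cells, against 3.62% to 6.89% of Cd79a-positive cells. Maf, a factor of several helper subsets, had 91.0, 37.1, 139 and 83.5 CPM, with ratios of -1.29 (-2.07 to -0.60) and -0.74 (-1.10 to -0.38). Both genes had higher levels in Cd4-alone than in Cd8-alone dividing cells. The list of group 2 innate lymphoid cell markers, 5 genes of which Gata3 is one, summed to 159, 54.7, 417 and 147 CPM in dividing and 77.0, 92.9, 233 and 99.2 CPM in other T cells. Gata3 gave 220, 26, 328 and 121 of its UMIs in dividing T cells, so the list is not separate from Gata3, and the part of such cells in the Gata3 values was not tested.

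Other genes outside the lists were taken by a rule of size, and ratios without the top cells are given for Plac8, Ly6a and Mt1. Plac8, a gene of lymphocytes and myeloid cells, had 302, 99.7, 205 and 65.9 CPM and was lower in KO by -1.60 after DPBS and -1.64 after papain, with -1.74 and -1.65 without the top cells. Ly6a, the surface antigen Sca-1, had 311, 89.9, 261 and 155 CPM, with ratios of -1.79 and -0.76. They were -2.37 and -0.96 without the top cells, and 43.5% of its UMIs in DPBS KO came from 1 cell. Both genes were lower in KO in each treatment. The heat shock gene Hspa1a had 2109, 690.0, 1211 and 1072 CPM, and so was higher in DPBS WT than in the other 3 libraries. Its near-identical neighbour Hspa1b can share its reads, and had 555, 221, 538 and 409 CPM. Mt1, a metallothionein, shows the weight of 1 cell, since 87.6% of its UMIs in DPBS KO came from 1 cell and the ratio of 1.09 after DPBS became -0.72 without the top cells.

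Papain against DPBS within a genotype shares its libraries with the comparisons above. In WT, 1.59% of the genes tested were 2-fold higher after papain and 0.475% 2-fold lower, and in KO 0.796% and 1.18%. The type 17 list summed to 263, 272, 912 and 436 CPM in dividing T cells and 164, 193, 301 and 205 CPM in other T cells, highest in Papain WT in both. In WT 5 of its 10 genes reached the 50 CPM mean and all 5 were higher after papain, 4 past 2-fold, with a median of 2.11. Rora and Maf were above 50 CPM in both WT libraries, but Il17a, Tmem176a and Tmem176b, at 0, 17.8 and 19.7 CPM in DPBS WT, reached that mean only through Papain WT, so this count and median carry no weight as support. In KO 3 reached it, all above 0 and 1 past 2-fold, with a median of 0.40. In other T cells 2 genes were tested in WT, with a median of 1.18, and 1 in KO, at -0.15.

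Rora, a factor of type 17 and type 2 lymphocytes, had 127, 133, 288 and 165 CPM in dividing T cells, and its log2 ratio of papain to DPBS was 1.19 (0.94 to 1.44) in WT and 0.31 (-0.09 to 0.74) in KO. The WT ratio was 1.20 without the top cells. Il17a, the main type 17 cytokine, had 0, 0, 331 and 36 UMIs. In Papain WT they came from 7 cells, with 150 in 1 of them, and in Papain KO from 2 cells. Against the floor of 3 UMIs for DPBS WT, the papain to DPBS ratio in WT was at least 6.87 on the log2 scale. The type 2 helper list summed to 174, 60.6, 486 and 174 CPM. Il13, a type 2 cytokine, had 1, 0, 56 and 0 UMIs, of which 47 of the 56 were in 1 cell of 3. Areg, a growth factor of type 2 cells, had 25, 0, 180 and 36 UMIs, with 151 of the 180 in 1 cell, and its KO to WT ratio after papain was -1.94 with that cell and 0.01 without the top cells. Type 2 cytokine levels in dividing T cells therefore rested on single cells.

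Tnfrsf4 and Icos, a pair of costimulatory receptors, were highest in the dividing T cells of Papain WT, while Cd28, given above, was highest in DPBS WT. Tnfrsf4, or OX40, had 27.4, 45, 157 and 36.1 CPM, with a papain to DPBS ratio of 2.52 (2.05 to 3.03) in WT cells, while KO cells gave -0.32 (-1.09 to 0.49). Icos had 129.9, 147, 253 and 149 CPM, with 0.96 (0.71 to 1.21) and 0.02 (-0.38 to 0.43). The KO to WT ratio after papain was -2.13 for Tnfrsf4 and -0.77 for Icos, and -2.86 and -0.76 without the top cells. Thinned to 5000 UMIs, Tnfrsf4 was seen in 10.0%, 0%, 27.3% and 4.65% of dividing T cells. Icos was seen in 30.0%, 28.6%, 43.6% and 44.2%, so its lower level in Papain KO was not seen in the share of cells. In other T cells Tnfrsf4 had 13.9, 25.8, 58.4 and 19.8 CPM, and Papain WT was the highest library there too. Whether the papain ratio differs between genotypes could not be tested with 1 library per group.

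The 7 type 1 genes did not go one way in WT. Of the 6 tested, 2 were above 0 and 4 below 0 after papain, with 1 past 2-fold higher and 2 past 2-fold lower, and the median was -0.46. Il18r1, a chain of the interleukin-18 receptor, had 28.7, 45, 84.4 and 39.6 CPM and Cxcr6, a chemokine receptor of resident T cells, had 61.8, 43.0, 84.4 and 68.6 CPM, both highest in Papain WT. Ifng, the gene of interferon gamma, had 232, 149, 47.3 and 168 CPM, with a papain to DPBS ratio of -2.29 (-2.68 to -1.92) in WT cells, and of 0.18 (-0.21 to 0.58) in KO. In DPBS KO, 55.3% of its UMIs were in 1 cell. Without the top cells the ratio was -2.87 (-3.38 to -2.39) in WT and 0.74 (0.18 to 1.33) in KO. In other T cells the ratios were 0.87 and 0.90. Tbx21, the factor T-bet, had 70.0, 72.3, 30.4 and 52.8 CPM. In DPBS KO, 54.1% of its UMIs were in 1 cell, and its level without that cell was 35.4 CPM. Cxcr3, a receptor that guides type 1 cells, had 231, 119, 132 and 172 CPM. Papain WT was the lowest of the 4 libraries for Ifng and Tbx21, and DPBS KO for Cxcr3. All 3 genes were higher in dividing than in other T cells of the same library, where Tbx21 had 6.5 to 9.5 CPM and Cxcr3 16.1 to 31.0 CPM.

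S100a4, a calcium-binding protein of migrating memory cells, had 395, 670.5, 1199.5 and 878 CPM and had the largest papain to DPBS ratio in WT among the genes taken by size, at 1.60 (1.47 to 1.74), and 0.39 (0.21 to 0.57) in KO. Thinned to 5000 UMIs it was seen in 42.0%, 71.4%, 69.1% and 65.1% of dividing T cells and in 11.6% to 18.2% of other T cells, with 17% to 31.2% in Cd79a-positive cells. In KO, Jun and S100a6 were higher after papain by 1.55 (1.18 to 1.95) and 1.52 (1.34 to 1.70). Jun had 292, 129, 278 and 379 CPM and S100a6 had 1315, 604, 1266 and 1730.4 CPM. In both genes DPBS KO was the low library and the other 3 lay closer together, so the ratio rests on the library with 25 cells.

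Cells with Cd4 alone and with Cd8 alone showed different effector genes while dividing. Cd4-alone cells had the higher level in all 4 libraries for genes such as Gata3, Rora, Maf, Icos, Tnfrsf4 and Cxcr3, and Cd8-alone cells for genes such as Gzma, Gzmb, Prf1, Nkg7, Ccl5, Klrd1 and Ccr7. The comparison uses 6 to 31 cells per class and library. Maf had 130.4, 64.0, 211 and 157 CPM in Cd4-alone cells and 4.16, 9.67, 17 and 4.27 CPM in Cd8-alone cells. Gata3 had 168, 76.9, 325 and 130.2 CPM against 58.3, 48.3, 85.1 and 55.5 CPM. The KO to WT order of Gata3 thus held within Cd4-alone cells of each treatment.

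Gzma had 466, 3055, 262 and 2593 CPM in Cd8-alone cells and 203, 1422, 52.5 and 271 CPM in Cd4-alone cells, so the KO libraries were higher within both classes. The cytotoxic list summed to 4506, 9863, 4071 and 8236 CPM in Cd8-alone cells, with 32.4%, 44.2%, 21.1% and 20.1% of it in the top cell. In Cd4-alone cells it summed to 2151, 5379.9, 839.6 and 1831 CPM, and in DPBS KO 80.8% of it was in 1 of the 6 cells. The type 17 list summed to 303, 269, 1207 and 713 CPM in Cd4-alone cells and 101.5 to 226 CPM in Cd8-alone cells. Il17a was at 0 in the Cd8-alone cells of every library.

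Genes of other cell types were low in most dividing T cells, and those of antigen-presenting cells sat in a few of them. The major histocompatibility complex (MHC) class II genes H2-Aa, H2-Ab1 and H2-Eb1 and their chaperone Cd74 had 4031, 4313, 10137 and 5066 UMIs. Of these, 97.2%, 98.4%, 98.4% and 97.5% lay in the 4, 2, 7 and 4 cells with 50 or more. Those cells had a median of 11, 11.5, 7 and 16 Cd3 UMIs, against 54.5, 43, 36.5 and 37 in the rest, and 2, 2, 6 and 2 of them held a UMI of the dendritic cell genes Flt3, Xcr1 or Cd209a. The other dividing cells with such a UMI numbered 1, 1, 0 and 0. Differences in class II genes between libraries, such as H2-Ab1 at 497, 1359, 1387 and 958 CPM, therefore rested on 2 to 7 cells each.

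The whole marker lists, each summed per library, ran over these ranges. The dendritic cell list of 5 genes summed to 514 to 1452 CPM in dividing and 271 to 446 CPM in other T cells. The natural killer list of 7 genes summed to 191 to 415 CPM against 611 to 755 CPM, the alveolar macrophage list of 6 to 433 to 872 CPM against 1605 to 2113 CPM, and the monocyte and interstitial macrophage list of 6 to 179.6 to 310.4 CPM against 240.5 to 353 CPM. The B cell list of 5 genes summed to 170.1 to 276 CPM against 187 to 302 CPM. The thymocyte list of 5 genes had 33.1, 154, 10.8 and 17.6 CPM, with 55.7% of the DPBS KO value in 1 cell. The gamma-delta list of 7 genes, given above for dividing T cells, summed to 72.8 to 82.0 CPM in other T cells. Retnlg (neutrophils), Ms4a1 (B cells), Cpa3, Mcpt8 and Ms4a2 (mast cells and basophils) and Rag2 (immature lymphocytes) were at 0 in the dividing T cells of every library. Leaving out cells with more than 0.5% of UMIs from B, myeloid and dendritic lists removed 4, 2, 8 and 5 dividing cells. Of the 50 values recomputed without them, 49 stayed within their spread, which for list medians is the spread over genes and not counting error.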

How the data were processed

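Lung CD45.2-positive cells of 4 groups were measured with a 3′ droplet method, 1 library per group. The deposited values are raw UMI counts per gene and cell barcode, made by the authors with Cell Ranger (matrix header 3.1.0) on mm10, per the labels and file headers. Further alignment settings, annotation and doublet removal are not given in the sources used here. Barcodes with more than 200 of 31053 genes and under 15% mitochondrial UMIs were kept. Scrublet in scanpy 1.11.5 used 0.8% expected doublets per 1000 barcodes, and called cells were left out only as an alternative. Libraries held 53854420 to 75675956 UMIs.

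Counts were summed over cells per library and scaled to 1000000 UMIs (CPM). A ratio was described for genes with a mean of at least 50 CPM over the sums compared, and a 2-fold limit (log2 of 1) served for counts. With 1 library per group no test was made, and values carry exact intervals at the 95% level, Clopper-Pearson for shares and Poisson for levels and ratios, which cover counting error only. Levels at 0 were set to a floor of 3 counts per library for a bound. To compare shares of cells, cells with at least 5000 UMIs were thinned to 5000 and the others were left out. An alternative thinned barcodes to 3000 UMIs before the choice of cells, and likewise left out those with fewer. Scripts ran in Python 3.11.15 with numpy 2.4.6, scipy 1.17.1, pandas 2.3.3 and matplotlib 3.10.9 and were tested on simulated data.

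All genes of the lists could be named. Outside them, the 10 genes highest and the 10 lowest in all 4 libraries were named for dividing against other T cells, and for KO against WT and papain against DPBS the 6 genes with the largest ratio either way at 200 CPM or more with UMIs in at least 5 cells. Receptor and immunoglobulin segment genes, Xist and Y-linked genes were left out of these picks. 1 listed gene is not reported here by itself. The cells, lists and rules were chosen with earlier results of these data known. Alternatives changed the rule, filters, denominator, scaling and CPM minimum, and 4 were chosen after seeing the data.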

Additional observations from a re-analysis of the deposited data

How the results depend on the processing

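Of 567 recomputed values, 450 stayed within their spread, 102 moved and 15 were marked as changed in sign, and the cause was not tested. The 15 do not hold every change of sign. The KO to WT share ratio after DPBS changed sign when cells with other-lineage genes were left out, and is not among them. Values stayed within their spread with doublet calls removed (50 of 50), a mitochondrial limit of 10% (50 of 50), cells with both Cd4 and Cd8 left out (4 of 4) and other T cells with S100a8 or S100a9 left out (8 of 8), the last pair chosen after seeing the data. No paired analysis was possible because each group has 1 library, and for the same reason no replicate could be left out. The depth limits the rarer genes and the small cell numbers limit every share.

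With at least 2 Cd3 UMIs, the mitosis share in DPBS WT was 70.2%. With Mki67 and Top2a at 2 UMIs or more, it was 73.3% in DPBS KO and the replication median for papain against DPBS in WT was -0.11. With cells over 0.5% other-lineage UMIs left out, it was 71.7% in Papain WT. Over all kept cells, dividing T cells were 0.639%, 0.438%, 0.713% and 0.754%.

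With Mki67 or Top2a in place of both (219, 134, 275 and 203 cells), dividing shares were 8.55%, 7.82%, 11.8% and 10.9%, Cd4-alone cells were 29.2% in DPBS WT, and the mitosis share was 70.0%, 71.0%, 69.9% and 63.7%. List medians were 2.28 (replication) and -0.58 (naive) for dividing against other T cells, -0.67 (replication) and -0.77 (mitosis) for KO against WT after DPBS, 0.24 (replication) and 0.16 (naive, sign changed) after papain, -0.42 (replication) and -0.42 (mitosis) for papain against DPBS in WT and -0.046 (mitosis) in KO.

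With Foxp3-positive cells kept, the share in Papain WT was 3.59%, the mitosis shares were 69.2% (Papain WT), 64.1% (Papain KO) and 70.1% (DPBS KO), and medians were -0.25 (mitosis) and 0.038 (naive, sign changed) for KO against WT after papain, -0.34 (mitosis) for papain against DPBS in WT, and 0.24 (replication) and -0.12 (mitosis) in KO.

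With cells holding any of 6 other-lineage genes left out (3, 5, 13 and 8 cells), shares were 0.361%, 0.791%, 1.72% and 1.37%, the log2 share ratio was 1.13 for KO against WT after DPBS and 2.26 for papain against DPBS in WT, Cd4-alone cells were 33.3% in DPBS WT, the Ift20 ratio after papain was -3.06, and the mitosis share was 64.8%, 85.8%, 66.7% and 60.3%. Medians were -1.43 (replication), 0.42 (mitosis, sign changed) and -0.69 (naive, sign changed) for KO against WT after DPBS, 0.033 (mitosis, sign changed) after papain, -0.41 (replication) and 0.56 (glycolysis, sign changed) for papain against DPBS in WT, and 1.38 (replication) and -0.54 (mitosis) in KO.

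With barcodes thinned to 3000 UMIs (31, 15, 46 and 24 cells), shares were 1.22% (DPBS WT), 0.895% (DPBS KO) and 1.27% for Papain KO, Cd4-alone cells were 19.4% in DPBS WT, 30.4% in Papain WT and 16.7% in Papain KO, and the mitosis share was 78.7% (DPBS WT), 75.7% (DPBS KO) and 76.4% for Papain KO. Medians were 0.24 (replication, sign changed) and -0.54 (cytotoxic, sign changed) for KO against WT after DPBS. After papain they were 0.050 (replication), 0.16 (mitosis, sign changed), 0.22 (naive, sign changed) and -0.28 (glycolysis, sign changed). For papain against DPBS they were 0.34 (replication, sign changed) and 0.22 (glycolysis, sign changed) in WT and 0.19 (replication) and 0.052 (mitosis, sign changed) in KO.

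With the mean over cells in place of the sum, medians were 0.18 (replication), -0.29 (mitosis) and 0.024 (naive, sign changed) for KO against WT after papain, and -0.082 (replication) and -0.34 (mitosis) for papain against DPBS in WT. With TMM factors, the naive median against other T cells was -1.82, with 197 genes 2-fold higher and 157 lower in place of 377 and 52. With a minimum of 20 CPM these counts were 622 and 88, and 174 and 147 for KO against WT after DPBS, 45 and 114 after papain, 156 and 48 for papain against DPBS in WT and 106 and 142 in KO. At 100 CPM they were 202 and 30, 28 and 15, then 5 lower after papain, 14 and 9 in WT and 6 and 10 in KO, against 54 and 41, 10 and 38, 47 and 14, and 23 and 34 at 50 CPM.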
